A study of Homo sapiens with 30 samples.

Results

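The 12 h response to bone morphogenetic protein 4 (BMP4) was measured on 5 of the 30 arrays of the series, 1 for each of 5 human breast cancer lines: SK-BR-3, ZR-75-30, HCC1954, HCC1419 and MDA-MB-361. The 5 arrays were chosen by their labelled time point, and each was paired with the 6 h array of its own line. On every array, RNA of cells given recombinant human BMP4 carried Cy5 and RNA of cells given vehicle for the same time carried Cy3, so a log2 ratio of 1 stands for a 2-fold higher level with BMP4. Per the methods, 3 parallel treatments of a line went into 1 pooled sample, which left 1 array per line and time point and no replicate error within a line. The lines are the replicates of the comparisons below, and each is 1 established line grown in culture.

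BMP4 is a secreted ligand of the TGF-beta superfamily. It binds type I and type II serine/threonine kinase receptors, whose activation leads to phosphorylation of receptor-regulated SMADs that enter the nucleus with SMAD4. Their best known direct targets are the ID genes, which encode helix-loop-helix proteins without a DNA-binding domain that block other transcription factors of that class, and the inhibitory SMADs, which limit the signal.

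Each of the 10 arrays of 6 h and 12 h had 41000 probes. Probes well above background made up 62.3% to 70.6% in Cy3 and 60.3% to 70.8% in Cy5, and the spike-in controls showed slopes of 0.588 to 0.877, so ratios were compressed. The SD of the log2 ratio over all probes ran from 0.128 on the 12 h array of HCC1954 to 0.392 on that of ZR-75-30. Of the epithelial markers, 7 of 8 were well above background in both channels on all 5 arrays of 12 h, among them EPCAM, KRT8 and KRT18. ERBB2 and its neighbour GRB7 were also above background on all 5, and 12 of 16 luminal and ERBB2 markers were. Of 13 stromal and blood cell markers, CD3E, CD68 and COL1A1 were above background in both channels on all 5 arrays and 2 more in 1 channel, whereas the leukocyte marker PTPRC and the fibroblast markers COL1A2, PDGFRB, LUM and DCN were so on none. In such bulk RNA, fewer cells of a type and less RNA per cell cannot be told apart.

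The first question was which genes responded to BMP4 at 12 h in all 5 lines. All 4 ID genes rose. A gene was called changed where limma gave an adjusted p below 0.05 over all probes. At 12 h against 0, 190 probes or 0.463% of those tested were called. Of these, 144 rose and 46 fell with BMP4, and 13 of the rises but none of the falls reached 2-fold on average.

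ID1 had log2 ratios of 1.23 in SK-BR-3, 1.17 in ZR-75-30, 1.49 in HCC1954, 1.91 in HCC1419 and 1.57 in MDA-MB-361. Its mean was 1.47 ± 0.30 (SD, n = 5 lines; limma adjusted p = 1.53e-05). The probe of ID2 with the higher signal gave 1.52, 2.20, 1.18, 1.39 and 1.58 in the same order of lines, with a mean of 1.57 ± 0.38 (limma adjusted p = 1.93e-05), and its second probe rose as well, with a mean of 1.07. Thus ID1 and this ID2 probe were above 2-fold in every line. ID3 and ID4 were less even across lines. The ID3 ratio was 0.52 in ZR-75-30 and 0.24 in SK-BR-3, but 1.20 in HCC1419, 1.26 in HCC1954 and 1.36 in MDA-MB-361 (mean 0.92 ± 0.50, limma adjusted p = 0.00637). ID4 was highest in SK-BR-3, at 1.60, and HCC1419, at 1.49, and lowest in ZR-75-30, at 0.33, with 1.00 in HCC1954 and 0.86 in MDA-MB-361 (mean 1.06 ± 0.51, limma adjusted p = 0.00252).

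Outside the ID family, and among named genes with a positive ratio in all 5 lines, the largest called mean rises were those of EDN2, UCA1, DUSP2, JUNB, GIPR, MAP3K5, FLJ39609 and PLAC8. JUNB, a subunit of the AP-1 transcription factor, was the most even of them, with ratios of 1.498, 0.90, 1.06, 1.29 and 0.86 in the order SK-BR-3, ZR-75-30, HCC1954, HCC1419 and MDA-MB-361 (mean 1.12 ± 0.27, limma adjusted p = 1.35e-05). A second JUNB probe in another stretch of the gene lay between -0.24 (ZR-75-30) and 1.04 (MDA-MB-361) and was not called (limma adjusted p = 0.494). EDN2, which encodes the vasoactive peptide endothelin 2, stood at 0.52, 1.55, 0.96, 1.43 and 1.48 in that order (mean 1.19 ± 0.44, limma adjusted p = 0.00663). The long non-coding RNA UCA1 reached 2.51 in HCC1419 and lay between 0.53 and 1.09 in the other lines (limma adjusted p = 0.0253).

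In several of the other rises HCC1954 stood below the remaining lines. DUSP2, a phosphatase of MAP kinases, had a ratio of 0.03 in HCC1954 against 0.86 in SK-BR-3, 1.01 in ZR-75-30, 1.81 in HCC1419 and 2.12 in MDA-MB-361, and a second probe with a mean of 0.85 was not called (limma adjusted p = 0.155). For the stress-activated kinase MAP3K5 the ratio was 0.21 in HCC1954 and 1.05 to 1.33 elsewhere. The ratio of the transcript FLJ39609 was 1.00 to 1.35 elsewhere and 0.04 in HCC1954, where neither channel was well above background. GPER1, the G protein-coupled oestrogen receptor, had a higher mean than any of these, at 1.42 (limma adjusted p = 0.00236), but a ratio of -0.01 in HCC1954. It stood at 1.92 in SK-BR-3, 1.62 in ZR-75-30, 1.88 in HCC1419 and 1.70 in MDA-MB-361. PLAC8 was likewise lowest in HCC1954, with 0.11 there, 0.89 to 0.93 in SK-BR-3, HCC1419 and MDA-MB-361, and 1.92 in ZR-75-30.

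Over the called rises as a whole, the median log2 ratio was 0.505 in SK-BR-3, 0.593 in ZR-75-30, 0.254 in HCC1954, 0.469 in HCC1419 and 0.457 in MDA-MB-361. Of the 142 of these probes with a value in every line, HCC1954 was the lowest line in 72 and the highest in 0, and ZR-75-30 was the highest in 65. HCC1954 was the lowest in 36 of 139 at 6 h and in 32 of 140 at 24 h. Its 12 h array also had the narrowest spread of ratios over all probes, and the part of that spread in this order was not tested.

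**Figure D1:**
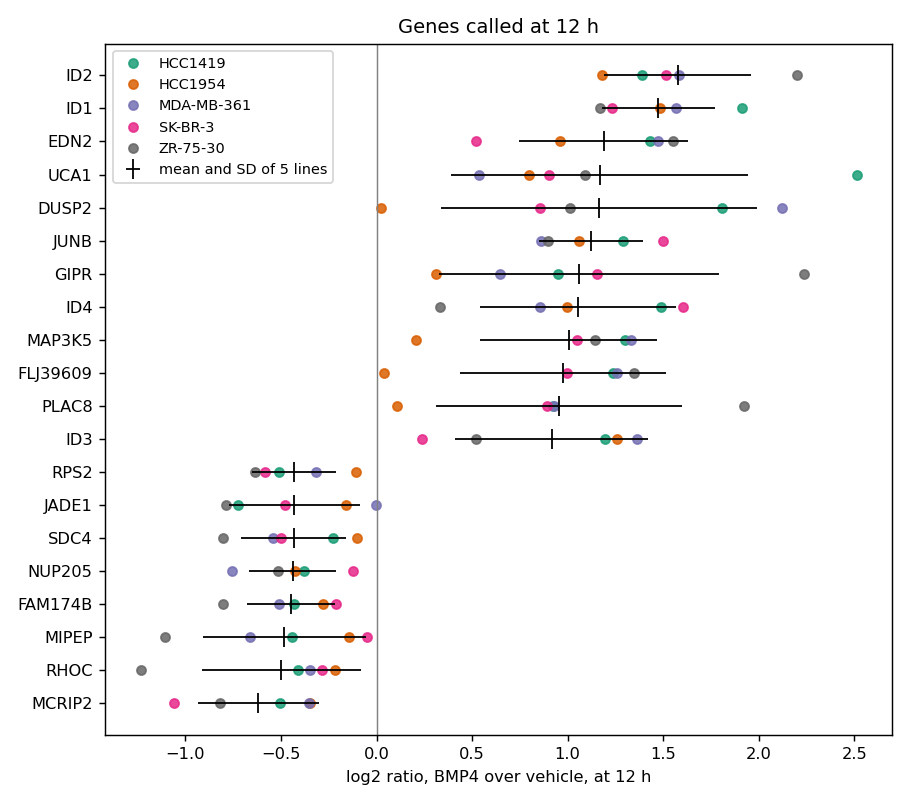
Log2 ratio of BMP4 over vehicle at 12 h (horizontal axis) of the 12 named genes with the largest called mean rise and the 8 with the largest called mean fall among those of 1 sign in all 5 lines, 1 point per cell line, with the mean as a vertical tick and the SD over 5 lines as a bar. ID1 and ID2 lie above 1 in every line, whereas DUSP2, MAP3K5, FLJ39609 and PLAC8 are near 0 in HCC1954. FLJ39609 was not well above background in either channel there.

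The called falls were smaller. MCRIP2 had the largest mean fall, with ratios of -1.06 in SK-BR-3, -0.82 in ZR-75-30, -0.35 in HCC1954, -0.51 in HCC1419 and -0.35 in MDA-MB-361 (mean -0.62 ± 0.31, limma adjusted p = 0.00027). RHOC had a ratio of -1.23 in ZR-75-30 and of -0.41 to -0.22 in the other lines, while a second probe of RHOC was not called (limma adjusted p = 0.317). The remaining named falls were those of MIPEP, a mitochondrial peptidase, FAM174B, the nuclear pore subunit NUP205, the heparan sulphate proteoglycan SDC4, JADE1, and 1 probe of the ribosomal protein gene RPS2, with means from -0.48 to -0.43. The other 5 probes of RPS2, both other probes of JADE1 (limma adjusted p = 0.0846 and 0.269) and the second SDC4 probe (limma adjusted p = 0.518) were not called. The median over all called falls was -0.347.

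The response at 12 h was already present at 6 h. The called rises had a median of 0.453 at 12 h, 0.388 at 6 h and 0.469 at 24 h, and all 144 were positive on average at 6 h and at 24 h. Their median at 30 min was 0.134, and 122 were already positive on average then. Of these 144 probes, 129 were positive in all 5 lines at 12 h, and 121 were so at 6 h. The called falls were likewise negative on average at 6 h in 46 of 46, and already at 30 min in 44. Their median was -0.163 at 30 min, -0.254 at 6 h and -0.347 at 12 h. All of these values contain any dye bias of a probe, since the dyes were not swapped.

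The call at 12 h rested on the spread shared over the 30 arrays of the series. When the 5 arrays were fitted alone, 0 probes were called, and the limma adjusted p of ID1 was 0.332. Leaving out HCC1419, SK-BR-3, ZR-75-30 or MDA-MB-361 gave 44, 98, 59 and 347 calls, and with the line as a block 779 were called, of which 509 were higher.

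A bias of the dyes shared by all arrays cancels when the 12 h array of each line is compared with its 30 min array. This comparison called 16 probes or 0.039% of those tested, all of them higher at 12 h. They were led by GPER1 (difference 1.44 ± 0.20, SE, limma adjusted p = 0.00608), which had a mean ratio of -0.02 at 30 min and 1.42 at 12 h. Also called were 1 probe each of ID1 (1.05 ± 0.17, SE, limma adjusted p = 0.0106), ID2 (0.97 ± 0.14, SE, limma adjusted p = 0.00608) and ID3 (0.90 ± 0.14, SE, limma adjusted p = 0.00664). The ID2 probe with the higher signal, at 1.26, missed the threshold (limma adjusted p = 0.0541), as did ID4, at 0.88 (limma adjusted p = 0.0696).

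The other calls were DUSP2, with a difference of 1.15, FLJ39609, with 1.10, EDN2, with 1.05, and SAMD11, with 0.97. The BH3-only protein gene BMF, the acyl-CoA thioesterase gene ACOT11 and the semaphorin gene SEMA3B each differed by 0.73 to 0.74. The small GTPase genes RAB31 and RIT1 differed by 0.64 and 0.56, the death-associated kinase gene DAPK2 by 0.54, and RCAN3, which encodes a regulator of calcineurin, by 0.45. Other probes of ACOT11, SEMA3B, RAB31 and RIT1 were called neither here nor at 12 h against 0. Their mean ratios at 12 h were 0.42 for SEMA3B, 0.43 for RAB31 and 0.24 for RIT1. Those of ACOT11 were 0.09 and, for a probe at background, -0.03. The last call was an expressed sequence tag, CN479126, with a difference of 1.25. On build hg18 its probe covers chr20:29657031-29657090 on the minus strand, 728 bases before the plus-strand probe of ID1 at chr20:29657819-29657878. It was higher in all 5 lines at 12 h, from 0.27 in SK-BR-3 to 2.07 in MDA-MB-361.

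Not every probe called at 12 h gained from 30 min. The clearest case was GIPR, the receptor of an incretin hormone, whose mean ratio was 0.95 at 30 min and 1.06 at 12 h, a difference of 0.11 (limma adjusted p = 0.953). A second GIPR probe was not called at 12 h, with a mean of -0.06 and -1.85 in SK-BR-3 (limma adjusted p = 0.947). JUND showed 0.48 at 30 min and 0.35 at 12 h, and MCRIP2 -0.41 and -0.62. The comparison with 30 min needed the line as a block: without it, 0 probes were called. It also gave 0 calls without HCC1419 or without MDA-MB-361, 3 without SK-BR-3 and 5 without ZR-75-30.

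Promoters are printed for 3 genes called between 30 min and 12 h, and for SOX1, whose probe moved in opposite directions between lines as described further on. They are the 250 bases before the listed start of each gene in RefSeq (GRCh38.p14), 5′ to 3′ on the gene's strand. Capitals mark GGCGCC, a GC-rich element that BMP-activated SMADs bind, and CAGAC, the SMAD box, both searched on either strand, with no overlap between the 2 motifs in these sequences.
ID3, chr1:23559502-23559751, minus strand: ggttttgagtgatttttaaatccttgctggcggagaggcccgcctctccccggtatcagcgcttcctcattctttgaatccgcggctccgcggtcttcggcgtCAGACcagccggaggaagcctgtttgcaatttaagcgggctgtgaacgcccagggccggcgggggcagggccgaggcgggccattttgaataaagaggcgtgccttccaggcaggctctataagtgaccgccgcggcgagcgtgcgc
DUSP2, chr2:96145441-96145690, minus strand: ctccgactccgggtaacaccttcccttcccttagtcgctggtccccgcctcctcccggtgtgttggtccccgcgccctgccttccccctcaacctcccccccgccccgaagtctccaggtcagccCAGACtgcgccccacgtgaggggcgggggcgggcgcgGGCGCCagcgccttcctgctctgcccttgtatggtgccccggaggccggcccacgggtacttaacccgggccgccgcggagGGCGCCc
SAMD11, chr1:925481-925730, plus strand: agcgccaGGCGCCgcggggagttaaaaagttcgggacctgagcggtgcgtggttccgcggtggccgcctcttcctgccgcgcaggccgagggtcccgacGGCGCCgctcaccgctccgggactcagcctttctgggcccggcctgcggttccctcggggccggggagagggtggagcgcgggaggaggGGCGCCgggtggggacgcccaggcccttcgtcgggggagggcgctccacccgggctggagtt
SOX1, chr13:112066899-112067148, plus strand: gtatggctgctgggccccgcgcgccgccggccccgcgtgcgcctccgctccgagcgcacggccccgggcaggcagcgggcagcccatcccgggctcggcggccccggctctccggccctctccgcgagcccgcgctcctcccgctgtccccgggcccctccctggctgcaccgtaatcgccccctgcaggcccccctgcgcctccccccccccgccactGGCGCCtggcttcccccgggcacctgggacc

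GGCGCC occurred 0 times in the ID3 window, 2 times in DUSP2, 3 times in SAMD11 and 1 time in SOX1. Among the promoters of the called rises at 12 h, 35.8% of 81 held it, and among those of the genes in the opposite-moving probes described below 35.5% of 76 did, against 22.5% of the 13728 promoters of all genes on the array and 16.1% of all 27305 promoters of this length. CAGAC was found in 34.6%, 22.4%, 36.8% and 37.8% of the same sets. The median GC content was 65.2%, 70.6%, 63.2% and 58%. These shares are a description: GC content moved with them, and its part was not tested.

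The second question was what changed between 6 h and 12 h within each line. No probe was called (0 of 41000, or 0%), and 558 probes had an unadjusted limma p below 0.05, or 1.36%. That is below the share of 0.05 awaited if no probe changed, so 0 calls do not show that nothing changed. The 12 h minus 6 h value of ID1 was 0.17 in SK-BR-3, 0.11 in ZR-75-30, -0.42 in HCC1954, 0.15 in HCC1419 and -0.11 in MDA-MB-361, and none of the 4 ID genes had a positive mean difference. The 10 named genes with the smallest p were PHF20, RBM14, TRDMT1, ADAMTSL4, MBTD1, FLJ37201, DYNLT3, RGL4, ECSCR and CAPN14, but only RBM14 and DYNLT3 were well above background on all 10 arrays. RBM14, which encodes an RNA-binding coactivator, was lower at 12 h in all 5 lines, with differences of -0.31 in SK-BR-3, -0.11 in ZR-75-30, -0.34 in HCC1954, -0.46 in HCC1419 and -0.36 in MDA-MB-361. The listed probe of DYNLT3, a dynein light chain gene, was higher in all 5, from 0.09 in HCC1954 to 0.64 in ZR-75-30. The other DYNLT3 probes, also well above background on all 10 arrays, were lower in HCC1954, at -0.14 and -0.15, and higher in the other lines. Neither RBM14 nor DYNLT3 passed the test over all probes.

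Within single lines the changes from 6 h to 12 h were large and uneven. With 1 array per line and time point no test was possible, so probes were counted at a 2-fold difference. SK-BR-3 had 5 probes higher (0.0122% of those measured) and 445 lower (1.09%). In ZR-75-30 the balance was the reverse, with 259 higher (0.633%) and 68 lower (0.166%). HCC1954 had 73 higher (0.178%) and 3 lower (0.00732%), MDA-MB-361 had 39 (0.0953%) and 18 (0.044%), and HCC1419 had 19 (0.0464%) and 3 (0.00733%). No probe was 2-fold higher in 3 or more lines, 39 were higher in at least 2, and none was lower in more than 1.

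These counts depended on the normalization. When each array was scaled by 1 factor in place of loess, SK-BR-3 had 448 probes higher and 7 lower, ZR-75-30 had 26 and 561, and HCC1954 had 9 and 133, so the balance turned in all 3 lines. In those values the difference moved with brightness. In SK-BR-3 the median was 0.685 in the brightest 4100 probes and -0.342 in the dimmest 4100. In ZR-75-30 it was -0.308 and 0.245. The 6 h and 12 h arrays lay on 1 slide in MDA-MB-361 and SK-BR-3, and on different slides and scan days in HCC1954 and ZR-75-30, and in HCC1419 on different slides scanned on 1 day. The part of slide and scan day in these differences was not tested.

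**Figure D2:**
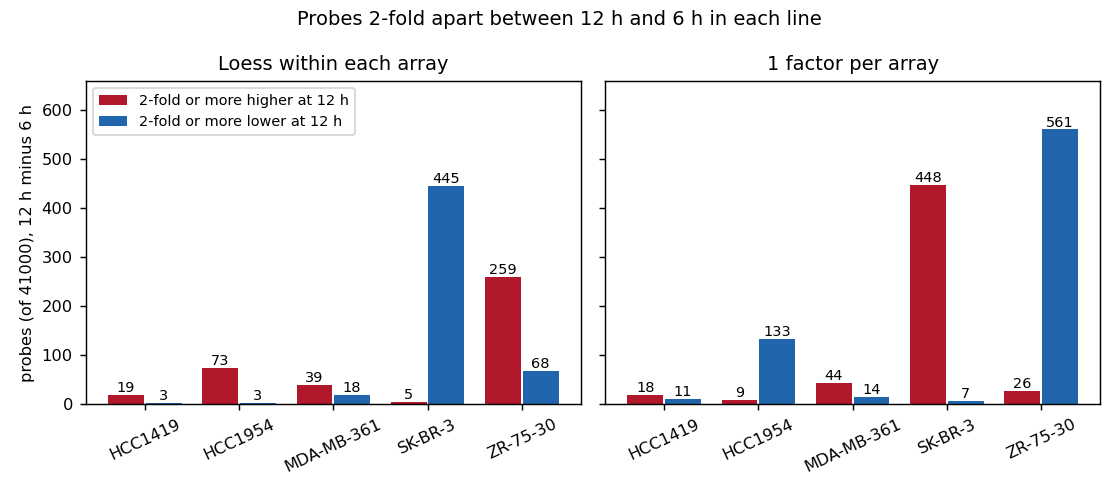
Number of probes at least 2-fold higher (red) or lower (blue) at 12 h than at 6 h (vertical axis) in each cell line, after loess within each array (left) and with 1 scaling factor per array (right). With loess SK-BR-3 has 445 lower and ZR-75-30 259 higher, and with 1 factor SK-BR-3 has 448 higher and ZR-75-30 561 lower.

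A set of 204 probes (0.498%) was at least 2-fold higher in 1 or more lines and at least 2-fold lower in another between 6 h and 12 h. The main opposition was between ZR-75-30 and SK-BR-3: 172 probes were higher in ZR-75-30 and lower in SK-BR-3, and 66 were higher in HCC1954 and lower in SK-BR-3. MDA-MB-361 was opposed to ZR-75-30 in 4 and to SK-BR-3 in 1. HCC1419 took part in none. Since this set was chosen on the same differences, the following values describe it and test nothing. The last probe inside the threshold was at 1.0002 and the first outside at 0.99477 on the log2 scale.

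The 204 probes moved together. Their median 12 h minus 6 h difference was -1.25 in SK-BR-3, 1.09 in ZR-75-30, 0.881 in HCC1954, -0.0603 in HCC1419 and 0.408 in MDA-MB-361. Even where a line did not reach 2-fold, nearly all of them shared a sign: 199 of 203 were higher in ZR-75-30, 200 of 204 in HCC1954 and 199 of 202 in MDA-MB-361, against 3 of 204 in SK-BR-3, with 82 of 203 in HCC1419. At 12 h itself the median ratio was -2.01 in SK-BR-3 and -0.727 in HCC1419, against 1.06 in ZR-75-30, 0.574 in HCC1954 and 1.25 in MDA-MB-361. No probe of the set had the same sign in all 5 lines at 12 h.

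On arrays that the choice had not used, the set also moved as a block, and the signs of the lines were in part others. From 3 h to 24 h the median difference was 0.467 in SK-BR-3, -0.51 in ZR-75-30, -0.462 in HCC1954, 1.27 in HCC1419 and 1.01 in MDA-MB-361. From 30 min to 1 h it was 2.6, 1.63, -0.69, -0.536 and 0.324 in the same order. SK-BR-3 was thus the lowest line from 6 h to 12 h and the highest from 30 min to 1 h. Of the set, 137 probes (67.2%) belonged to the group of 210 that the study had picked as moving together on these arrays and on those of a second ligand, BMP7, which is 65.2% of that group and no independent evidence. The 67 outside the group had medians of -1.23, 1.09, 0.873, -0.065 and 0.296 from 6 h to 12 h, in the same order.

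**Figure D3:**
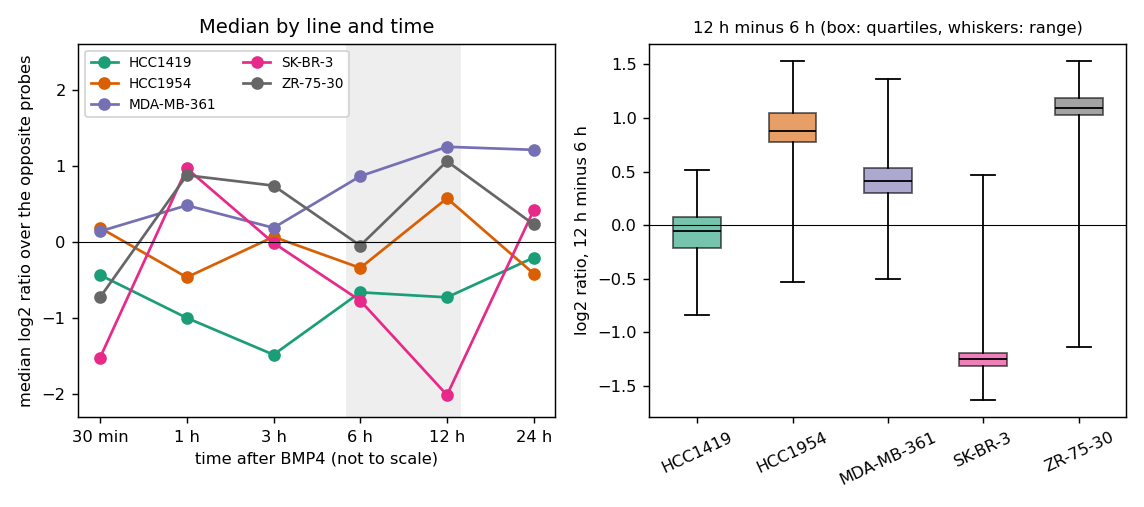
Median log2 ratio of the 204 opposite-moving probes at each time point by cell line (left; vertical axis log2, time axis not to scale, the interval from 6 h to 12 h shaded) and the spread over probes of the 12 h minus 6 h difference in each line (right; boxes show quartiles, whiskers the range). SK-BR-3 goes from -0.77 to -2.01 while ZR-75-30 goes from -0.0471 to 1.06.

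Among the named genes of the set, the widest range over lines was that of ZMIZ2, a PIAS-like cofactor gene. Its probe differed between 12 h and 6 h by -1.53 in SK-BR-3, 1.10 in ZR-75-30, 1.40 in HCC1954, 0.14 in HCC1419 and 0.27 in MDA-MB-361. For NEUROG3, a transcription factor gene of pancreatic endocrine cells, the values were -1.38, 1.52, 1.04, -0.06 and 0.69 in this order. NRSN2, a gene named for the neuronal vesicle protein neurensin, had -1.54, 1.26, 1.20, 0.13 and 0.41. The order of the lines was therefore nearly the same in all 3, with SK-BR-3 lowest and either HCC1954 or ZR-75-30 highest. The neural transcription factor gene SOX1, whose promoter is printed above, stood at -1.34, 1.27, 1.21, -0.10 and 0.65. The other named members were CYP4F2, the glutamate receptor subunit gene GRIN1, the creatine kinase gene CKB, ZNF575 (with no value in HCC1419), the tyrosine kinase gene TNK2, CMIP, the tenascin gene TNXB and the calcium channel gene CACNA1E. They lay between -1.46 and -1.30 in SK-BR-3 and between 1.25 and 1.40 in ZR-75-30.

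Other probes of the same genes differed less or not in the same way. ZMIZ2 had 2 more probes, both well above background on all 10 arrays, with SK-BR-3 differences of -0.10 and 0.04 and ZR-75-30 differences of -0.45 and 0.16. The second CKB probe had the signs of the first in all 5 lines at a smaller size, with 0.34 in ZR-75-30 and -0.43 in SK-BR-3. The 3 other TNXB probes ran from -0.44 to -0.04 in SK-BR-3 and from 0.07 to 0.36 in ZR-75-30. In these lines they had the signs of the first TNXB probe and were smaller, but none had its signs in all 5 lines. A second GRIN1 probe moved by nearly as much, at 0.90 in ZR-75-30 and at -1.28 in SK-BR-3, and so did a second CYP4F2 probe, at 1.37 and -1.43, and both of these probes overlap the first probe of their gene. Another GRIN1 probe, which was not above background on any of the 10 arrays, was at -0.05 in ZR-75-30 and -0.06 in SK-BR-3. Over the 109 gene symbols in the set, 64 had at least 1 other probe outside it, and 50 such probes of 36 genes were well above background on all 10 arrays. Only 1 of these 50 had a range over lines of 2 or more, and 47 had a range below 1. Their median range was 0.502, against 2.37 in the set and 0.534 over all probes above background, and their median intensity was 8.97 on the log2 scale.

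The set was bright. All 204 probes were well above background on all 10 arrays, against 52.9% of all probes, their median log2 intensity was 12.7 against 7.67, and 120 of them lay among the brightest 4100 probes. A gene symbol was at hand for 53.9% of them, against 68.8% of all probes. With 1 factor per array the medians kept their order between SK-BR-3 and ZR-75-30, at -0.576 and 0.768, with 0.554 in HCC1954, but 71 probes then met the 2-fold rule and 4 of them were in the set. Without SK-BR-3 only 4 probes met the rule, and without ZR-75-30 67 did.

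Outside this set and the study's group, HCC1954 and SK-BR-3 were still negatively correlated over probes. SK-BR-3 and ZR-75-30 were not. Across 40948 probes, the 12 h minus 6 h differences of HCC1954 and SK-BR-3 had a Pearson correlation of -0.596, and of -0.528 without the set and the study's group. The probes share their 4 arrays, so this is a description of those arrays. MDA-MB-361 and SK-BR-3 stood at -0.265, HCC1954 and MDA-MB-361 at 0.29, and SK-BR-3 and ZR-75-30 at -0.125, which became 0.00615 without those probes. Of the 445 probes that were 2-fold lower in SK-BR-3, 420 of the 443 with a value were higher in ZR-75-30. Over all probes, 20931 of 40905 were higher there. The 445 were also higher in HCC1954 (442 of 443) and MDA-MB-361 (413 of 440). They include 200 probes of the set, which was chosen on these differences, so the count for ZR-75-30 is no separate evidence. Of these 445, 191 lay outside the set and the study's group, and their signs were not counted apart.

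Leaving out the set and the study's group, the 2-fold counts were 84 higher and 64 lower in ZR-75-30, 5 and 191 in SK-BR-3, 34 and 18 in MDA-MB-361, 19 and 3 in HCC1419, and 7 and 3 in HCC1954. Of these, 17 and 4 in MDA-MB-361 and 10 and 2 in HCC1419 were well above background, against 80 and 64 in ZR-75-30 and 2 and 188 in SK-BR-3. Several differences were found in 1 line. In SK-BR-3, C18orf2 went from 3.25 at 6 h to 0.00 at 12 h, and it lay between -0.21 and 0.10 at all other times and in all other lines. Its probe was well above background on only 2 of the 10 arrays of 6 h and 12 h. In MDA-MB-361, CLTCL1, a clathrin heavy chain gene, went from 0.22 at 6 h to 3.25 at 12 h, and LIME1, an adaptor gene of lymphocyte signalling, from 0.12 to 3.11. Neither exceeded 0.24 at 12 h in another line. Conversely EGR1, an immediate early transcription factor gene, went from 1.01 to -0.58 in MDA-MB-361, while its difference in the other lines lay between -0.08 and 0.43.

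In ZR-75-30, PPP3R1, the regulatory subunit gene of calcineurin, went from 0.32 to 2.42, and TMCC2 went from -0.34 to -2.12. RPL26L1 differed by 2.98 in ZR-75-30, from a ratio of -2.26 at 6 h to 0.72 at 12 h. In SK-BR-3 the autophagy gene BECN1 went from 1.32 to 2.24 and the phosphoinositide phosphatase gene SACM1L from 1.13 to 2.08, while both were negative at 12 h in every other line. HCC1419 had lower values of the retinal dehydrogenase gene ALDH1A3, from 0.03 to -1.12, and of TFF1, a secreted trefoil peptide gene induced by oestrogen, from 0.77 to -0.10. TFF1 was also lower at 12 h in ZR-75-30, at 0.08 after 0.79. In HCC1954, PAICS, a purine synthesis gene, went from 0.26 to -0.87. No such single value has a replicate.

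The gene lists gave the wider pathway. Of the 20 genes of BMP signal feedback, 1 was called at 12 h (0.463% of all probes were), the inhibitory SMAD6, with ratios of 0.46 in SK-BR-3, 0.25 in ZR-75-30, 0.44 in HCC1954, 0.80 in HCC1419 and 1.42 in MDA-MB-361 (mean 0.67 ± 0.46, limma adjusted p = 0.0418). BAMBI, a pseudoreceptor that dampens BMP signals, had a mean of 0.75 (limma adjusted p = 0.0947) and the secreted BMP antagonist CHRD 0.67 (limma adjusted p = 0.144). None of the 13 BMP receptors and SMADs was called. Of 24 BMP target transcription factors 5 were called, where 0.463% of all probes were, all of them higher: HEY1 (mean 0.72), MSX2 (0.48), DLX1 (0.43), DLX2 (0.76) and ATOH8 (0.53). MSX1 was not called and stood at 0.76 in ZR-75-30 and -1.79 in SK-BR-3 at 12 h. The median over the list was 0.0646, against -0.00264 over all probes. At 12 h HEY1, MSX2, DLX1 and DLX2 were again low in HCC1954, at 0.11, 0.13, 0.07 and 0.10. At 6 h HEY1 stood there at 0.48, still the lowest line, and MSX2 at 0.37, above HCC1419 and ZR-75-30. The narrow spread of the 12 h array of HCC1954 limits this reading as well.

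Among 24 immediate early genes JUNB, JUND and DUSP2 were called, and among 23 genes of the unfolded protein and amino acid response DNAJB9, beside 0.463% of all probes. None was called among the genes of mitosis, DNA replication, G1 regulation, cholesterol synthesis, glycolysis and hypoxia, heat shock, interferon response, or the epithelial and mesenchymal list, and no gene of any list was called between 6 h and 12 h. Some lists were shifted in single lines. The 29 DNA replication genes had a median ratio of -0.395 at 12 h in MDA-MB-361, where 2 of them were positive, and medians of -0.116 to 0.0318 in the other lines. From 6 h to 12 h that median was -0.259 in MDA-MB-361, with 1 of 29 higher. CDC6, a licensing factor, stood at -0.47 there and the replication clamp PCNA at -0.47.

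In HCC1954 the 21 interferon response genes had a median 12 h minus 6 h difference of 0.337, with 18 higher, and medians of -0.14 to 0.0573 elsewhere. At 12 h their median in HCC1954 was -0.109. IFI44L went from -1.65 at 6 h to -0.19 at 12 h in HCC1954, IFIT3 from -1.41 to -0.28, IFIT1 from -1.40 to -0.54, and ISG15, a ubiquitin-like protein gene, from -0.80 to -0.32. IFI44L was well above background on only 2 of the 10 arrays. In ZR-75-30 the 8 epithelial markers had a median difference of -0.446, with 1 higher, and the luminal and ERBB2 markers one of -0.301. The keratin gene KRT19 differed by -1.01 in ZR-75-30 and by -0.84 in HCC1419. None of these shifts in single lines could be tested.

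**Figure D4:**
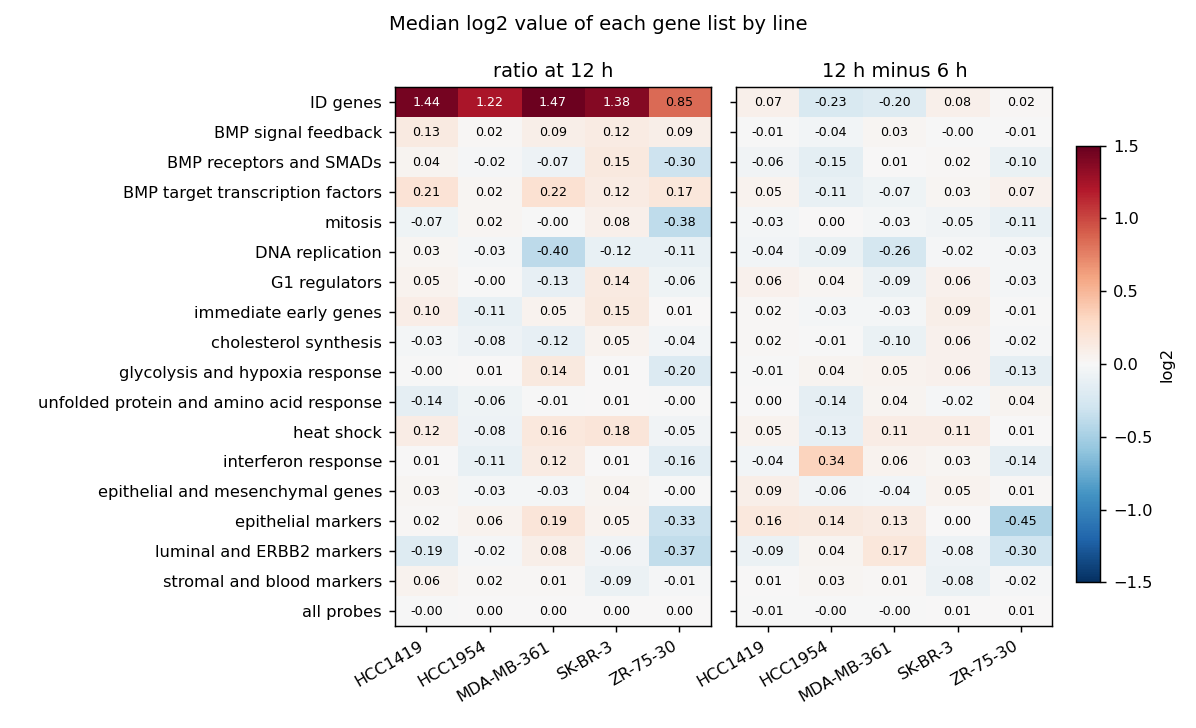
Median log2 value of each gene list in each cell line, for the ratio at 12 h (left) and the 12 h minus 6 h difference (right), with the median of all probes in the last line; red is higher and blue lower with BMP4. The ID genes are high at 12 h in every line, from 0.846 to 1.47, and their change from 6 h lies between -0.227 and 0.0802.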

How the data were processed

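BMP4-treated (Cy5) and vehicle-treated (Cy3) RNA of 5 breast cancer lines at 6 time points was hybridized to 30 Agilent 44K arrays, without dye swap. Per the file headers, the authors extracted the spots with Feature Extraction 9.5.1.1 on genome build hg18. The deposited mean signals and local backgrounds are intensity values without normalization. The deposited software log ratio is a log10 value, and the authors' matrix holds log2 ratios with each array's median at 0. The lowest Pearson correlation of the matrix with the log2 ratios of the deposited processed signals was 0.9999. The software log ratio and the matrix served as alternatives.

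Intensities were background-corrected by normexp (offset 50) and log2 ratios normalized by loess within arrays in limma 3.58.1 (R 4.3.3). Control spots (1639 of 45015) were left out, outlier spots set to missing, and spots averaged to 41000 probes. limma was fitted on all 30 arrays with Benjamini-Hochberg adjustment, called below 0.05. For 12 h minus 6 h and 12 h minus 30 min the cell line was a block, because the same line stands on both arrays. The deviations of the 6 h and 12 h arrays of a line correlated with r from -0.00985 in HCC1954 to 0.852 in MDA-MB-361. On simulated data with the same arrays, a log2 change of 1 was recovered in 100% of probes at 12 h, 88% for 12 h minus 6 h and 90% for 12 h minus 30 min. False calls numbered 13, 7 and 11 in that order. These shares hold for the simulated noise and changes only. They were not checked against the correlation within lines or against responses that differ between lines. They therefore give no power for the real arrays.

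Genes were named through RefSeq accessions (58.4% of probes matched), else by the deposited name. Lists used the brightest probe of a gene. For each comparison the 12 largest called mean rises and 8 falls with 1 sign in all 5 lines were named (the 10 smallest p where none was called), the 12 opposite-moving probes with the widest range, and the 3 largest differences each way per line. ID1 to ID4, the called genes of each list and otherwise up to 4 of them were named as well, and the other called genes of 12 h minus 30 min and additional probes after their values were seen. The members, lists and tests were chosen with earlier results of these data known. The precision is limited by 1 pooled array per line and time point. For the ratio at 12 h, p-values rest on the spread within time points, shared over all arrays of the series. That fit had no term for the line, so the arrays of a line were counted as independent. For the differences between time points, p-values rest on the spread left after the level of each line was taken out. Alternatives were other scalings, background handling, filters, blocks and leaving out each line.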

Additional observations from a re-analysis of the deposited data

Results flagged for a closer look

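Among 140 groups of 5 lines examined, 10 had 1 line far from the others, where chance gives about 5% of groups. At 12 h, UCA1 stood at 2.51 in HCC1419, with the other lines between 0.534 and 1.09. HCC1954 stood apart in 3 genes: MAP3K5 at 0.205 (others 1.05 to 1.33), FLJ39609 at 0.0414 (others 0.998 to 1.35) and GPER1 at -0.00742 (others 1.62 to 1.92). FLJ39609 was not well above background in either channel on the 12 h array of HCC1954. RHOC was at -1.23 in ZR-75-30, with the others between -0.409 and -0.219. On 12 h minus 6 h, ZR-75-30 stood apart with FAM174B at -0.471 (others -0.00297 to 0.0818), RIT1 at 0.517 (others 0.165 to 0.267), and the median of the epithelial markers at -0.446 (others 0.00478 to 0.157).

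ZR-75-30 had 259 probes 2-fold higher between 6 h and 12 h, with 5 to 73 in the other lines, and SK-BR-3 had 445 probes 2-fold lower, with 3 to 68 in the others. Lines moved in opposite directions in 172 probes for ZR-75-30 over SK-BR-3, 66 for HCC1954 over SK-BR-3, 4 for MDA-MB-361 over ZR-75-30 and 1 for MDA-MB-361 over SK-BR-3. These differences between lines were not tested, since each rests on 1 array per line and time point.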

How the results depend on the processing

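The number of probes called at 12 h against 0 (190) was 6 with 1 factor per array, 374 with the software log ratio, 297 with the authors' matrix, where 134 were higher and 163 lower, 385 with no background subtraction, 1 with spreads scaled alike, 123 with array weights, 0 with only the 12 h arrays, 290 with scan day as a random block, 779 with the replicate block (cell line) and 562 with slide as a block, the last chosen after seeing the data. Leaving out a line gave 44 to 347. For 12 h minus 6 h every alternative gave 0, with or without the replicate block and with each line left out. For 12 h minus 30 min (16), 26 were called with array weights and 0 with 1 factor per array, scaled spreads, only the arrays compared or no replicate block, and leaving out a line gave 0 to 15.

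Counts of 2-fold probes per line (higher then lower, in the order SK-BR-3, ZR-75-30, HCC1954, HCC1419, MDA-MB-361) were 985 and 1672, 1092 and 800, 952 and 854, 503 and 382, and 843 and 635 with the software ratio. With the matrix they were 1003 and 1522, 850 and 1128, 874 and 867, 495 and 378, and 721 and 766. With 1 factor per array SK-BR-3 had 448 and 7, ZR-75-30 26 and 561, HCC1954 9 and 133, and HCC1419 11 lower. Scaled spreads gave 628 and 121 in HCC1954, 10 higher in HCC1419, 109 and 130 in ZR-75-30, 1 and 5 in SK-BR-3, and 25 and 8 in MDA-MB-361. No background subtraction gave 422 higher in ZR-75-30 and 8 lower in HCC1954, leaving out dim probes 2 higher in SK-BR-3, 9 higher in HCC1419 and 21 and 2 in MDA-MB-361, and keeping outlier spots 6 lower in HCC1954. Opposite-moving probes (204) numbered 71 with 1 factor, 971 with the software ratio, 872 with the matrix, 11 with scaled spreads, 575 at 1.5-fold, 59 against the mean of 3 h and 6 h, 1 in the 2 lines with both arrays on 1 slide, and 4 to 204 with a line left out. Of the single-gene values, 509 kept their direction and call under the other settings, 232 lost the call and 3 reversed: on 12 h minus 6 h, ECSCR became 0.118 with the software ratio and 0.612 with the matrix, and TRDMT1 0.0104 with the matrix. Where no cause is stated above, the cause was not tested. Dim probes limit the ratios: 52.9% of probes were well above background on all 10 arrays of 6 h and 12 h.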

Other observations

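The histone genes, chosen after their values were seen, were shifted in ZR-75-30. Of 84 histone probes, 74 were higher at 12 h than at 6 h in ZR-75-30, with a median difference of 0.323 and 5 at 2-fold or more. In the other lines the median lay between -0.101 in SK-BR-3 and 0.0872 in HCC1954, and no histone probe differed by 2-fold. At 12 h the median ratio was 0.437 in ZR-75-30 and -0.135 in SK-BR-3. No test was made, since each value rests on 1 array per line and time point.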
